A study of Mus musculus with 40 samples.

Results

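The genes described here are 43 mouse genes for signalling, surface and regulatory proteins whose expression is largely kept to leukocytes, of 21347 genes in the table. They were taken by name, from a list chosen with earlier results of these data known. All 43 were in the table, and all 43 passed the filter on low values (1 per M or more in at least 3 libraries), as did 14701 genes in all. By role they are 12 kinases, adaptors and exchange factors close to the T cell receptor, 6 negative regulators, 8 regulators of small GTPases and actin, 12 surface proteins and 5 transcription factors. RNA was sequenced from 4T1 cells, a mouse mammary carcinoma line, cultured alone (22 libraries) or with T cells from the spleens of C57Bl6 mice (18 libraries). Cells grew on Uncoated Tissue Culture Polystyrene or on this plastic after a coat, at 250 µg/ml, of Vitronectin, Fibronectin, Collagen I or Collagen IV. Carcinoma cells were seeded at 10k per cm2 and grown overnight. T cells at 80k per cm2 and interleukin 2 at 30 U/mL were then added for 24 h, and wells of 4T1 alone received interleukin 2 without T cells. Each of the 10 groups holds 3 to 5 libraries from 5 experiments. Experiment 1 gave 2 co-cultures (uncoated plastic and fibronectin), experiment 3 gave 1 (collagen IV), and experiments 2, 4 and 5 gave 5 each, 1 per substrate. Floating cells were spun down and joined with the trypsinised ones, and a co-culture library therefore mixes RNA of both cell types, and neither sorting nor activation of the T cells is described in the labels.

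A T cell reads antigen through its receptor, and the kinase Lck phosphorylates the CD3 chains and then Zap70. Zap70 phosphorylates the scaffolds Lat and Lcp2 (SLP-76), which Grap2 (Gads) joins, and from there Ras, protein kinase C theta and the Vav and Dock2 exchange factors are engaged. CD45, the product of Ptprc, keeps Lck ready for signalling and stands on nearly all nucleated blood cells, while Ikaros (Ikzf1), Bcl11b and Runx3 are transcription factors of lymphocyte development.

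Values are reads per gene over a library size that the authors had scaled, and are written per M, for mega-reads. Whole reads could be recovered from all values (100% within 0.01 of a whole number), and depth was 18.95 to 239.13 M reads per library, with a second highest of 47.73 M and a median of 34.6 M. Where no read was seen, up to 3 reads are allowed by counting error, or 0.0124 to 0.158 per M by library. The 11 T cell marker genes summed to 1.06 to 2.67 per M in 4T1 alone and to 544 to 1682 per M in co-cultures of experiment 4, to 104 to 164 in experiment 1 and 9.76 to 28.5 in experiments 2, 3 and 5. Experiment 4, and in it the collagen IV co-culture, therefore stood apart from the rest in T cell RNA, and results are given with and without experiment 4. Fewer T cells and less RNA per T cell cannot be told apart in these mixed libraries. Wells of an experiment share their cells, and p-values over libraries do not count experiments.

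Sequence around the members' start sites was taken from RefSeq promoter windows (GRCm38.p6, 250 bases before to 50 after a start). The members moved together across libraries that differ in T cell RNA, and whether they share a regulator was not tested. Of the 43 members, 31 had a window and 11 of these had more than 1, giving 44 windows. The 7 letters AGGAAGT (or ACTTCCT on the other strand), a core to which ETS family factors bind, stood in 31.8% of the 44 windows and in 9.35% of all 32851 windows. TGTGGTT (or AACCACA), a RUNX core, stood in 11.4% and 5.27%. In all, 10 motifs were searched on both strands. The other ETS forms were GAGGAAGT, which holds AGGAAGT (11.4% of member windows and 3.2% of all), ACAGGAAG, which overlaps it (18.2% and 3.58%), and CCGGAAGT (2.27% and 3.89%). The rest were TGGGAA of Ikaros (27.3% and 25.6%), the E box CAGNTG (54.5% and 51.4%), the TATA box TATAAA (15.9% and 13.6%), the GC box GGGCGG (29.5% and 35.7%) and CCAAT (15.9% and 37.4%). A match is a description of letters, and windows of 1 gene can overlap. The windows printed are all those of Grap2, Laptm5, Dock2, Ptprc and Ikzf1, the members with the largest rise in their role groups, and of Lck, which also had reads in 4T1 alone. Capitals mark AGGAAGT and TGTGGTT on either strand, and each sequence runs 5′ to 3′ on the strand of its gene. Grap2 (chr15:80623233-80623532), Laptm5 (chr4:130913066-130913365) and Ikzf1 (chr11:11685675-11685974 and chr11:11689927-11690226) are on the plus strand. Dock2 (chr11:34783856-34784155), Ptprc (chr1:138175077-138175376 and chr1:138175256-138175555, which overlap) and Lck (chr4:129558323-129558622 and chr4:129573592-129573891) are on the minus strand.
Grap2: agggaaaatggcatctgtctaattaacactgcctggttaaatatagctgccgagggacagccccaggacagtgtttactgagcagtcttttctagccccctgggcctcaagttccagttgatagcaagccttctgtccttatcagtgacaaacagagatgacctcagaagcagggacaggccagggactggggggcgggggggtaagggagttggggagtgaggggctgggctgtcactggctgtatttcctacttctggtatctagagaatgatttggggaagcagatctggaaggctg
Laptm5: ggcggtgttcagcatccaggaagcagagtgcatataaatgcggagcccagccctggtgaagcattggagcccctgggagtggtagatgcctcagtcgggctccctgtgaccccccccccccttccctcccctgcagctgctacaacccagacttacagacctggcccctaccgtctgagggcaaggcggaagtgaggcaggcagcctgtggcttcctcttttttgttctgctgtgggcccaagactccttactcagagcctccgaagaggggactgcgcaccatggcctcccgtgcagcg
Dock2: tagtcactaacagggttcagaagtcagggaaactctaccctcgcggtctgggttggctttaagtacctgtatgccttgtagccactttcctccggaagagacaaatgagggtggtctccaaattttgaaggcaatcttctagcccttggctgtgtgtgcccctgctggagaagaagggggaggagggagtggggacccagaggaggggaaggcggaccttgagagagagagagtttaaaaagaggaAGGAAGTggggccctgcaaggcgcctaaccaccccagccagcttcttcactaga
Ptprc, first window: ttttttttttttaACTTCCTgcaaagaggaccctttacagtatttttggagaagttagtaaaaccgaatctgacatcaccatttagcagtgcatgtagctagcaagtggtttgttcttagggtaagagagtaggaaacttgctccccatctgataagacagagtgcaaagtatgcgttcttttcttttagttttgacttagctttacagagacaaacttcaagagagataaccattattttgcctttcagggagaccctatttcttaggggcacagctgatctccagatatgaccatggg
Ptprc, second window: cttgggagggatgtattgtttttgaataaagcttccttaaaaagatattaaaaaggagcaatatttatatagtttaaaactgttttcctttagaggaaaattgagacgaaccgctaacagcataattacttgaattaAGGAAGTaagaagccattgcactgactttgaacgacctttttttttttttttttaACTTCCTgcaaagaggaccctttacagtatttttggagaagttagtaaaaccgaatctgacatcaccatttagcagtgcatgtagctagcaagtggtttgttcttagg
Ikzf1, first window: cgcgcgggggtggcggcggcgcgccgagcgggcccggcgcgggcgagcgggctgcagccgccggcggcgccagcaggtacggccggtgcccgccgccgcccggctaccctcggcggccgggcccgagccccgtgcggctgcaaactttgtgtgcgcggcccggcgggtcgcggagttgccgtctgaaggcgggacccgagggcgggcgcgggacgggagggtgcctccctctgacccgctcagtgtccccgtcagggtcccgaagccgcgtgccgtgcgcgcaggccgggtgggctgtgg
Ikzf1, second window: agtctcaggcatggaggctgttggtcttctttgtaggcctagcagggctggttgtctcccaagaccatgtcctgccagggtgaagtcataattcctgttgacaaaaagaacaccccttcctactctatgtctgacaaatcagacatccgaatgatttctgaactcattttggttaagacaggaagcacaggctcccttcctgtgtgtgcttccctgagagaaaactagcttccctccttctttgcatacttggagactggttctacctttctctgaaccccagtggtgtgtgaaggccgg
Lck, first window: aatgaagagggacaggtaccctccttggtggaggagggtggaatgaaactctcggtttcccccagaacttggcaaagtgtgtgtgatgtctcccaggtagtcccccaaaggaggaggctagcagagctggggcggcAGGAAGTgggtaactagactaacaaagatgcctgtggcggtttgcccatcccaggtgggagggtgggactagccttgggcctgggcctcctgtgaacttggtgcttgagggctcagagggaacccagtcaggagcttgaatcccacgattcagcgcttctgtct
Lck, second window: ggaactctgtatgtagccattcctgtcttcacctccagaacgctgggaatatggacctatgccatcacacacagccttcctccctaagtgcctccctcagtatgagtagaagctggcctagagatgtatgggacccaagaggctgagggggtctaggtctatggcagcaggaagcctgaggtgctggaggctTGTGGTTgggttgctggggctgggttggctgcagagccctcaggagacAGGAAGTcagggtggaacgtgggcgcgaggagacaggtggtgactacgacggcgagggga
The windows of Grap2, Laptm5 and Ikzf1 hold neither core. Those of Dock2, Ptprc and Lck hold AGGAAGT or its reverse complement 1 time each, except 2 times in the second Ptprc window, and the second Lck window also holds TGTGGTT.

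In 4T1 alone, 38 of the 43 members averaged under 1 per M, and none of the 38 reached 1 per M in any of the 22 libraries. Their summed level was 1.46 to 5.12 per M with a median of 2.38, against 34.0 to 5597 per M in co-culture. The 5 others had RNA in the carcinoma line itself, with reads in all 22 libraries. Ets1, a founding member of the ETS transcription factor family, averaged 351.5 ± 35.9 per M (SD, n = 22), and Arhgdib, a GDP dissociation inhibitor of small GTPases in blood cells, 9.36 ± 0.96. Lsp1, an actin-binding protein of leukocytes, averaged 2.34 ± 0.97, Lck 1.76 ± 0.33 and Skap1, an adaptor that couples the receptor to integrins, 1.201 ± 0.261. Lck had 1.11 to 2.53 per M in wells where Cd3e, the reference T cell gene, averaged 0.00934 per M and lay between 0 and 0.0819. Below these, Coro1a (0.41 ± 0.13), Sla (0.36 ± 0.23) and Txk (0.33 ± 0.14) also had reads in all 22 libraries of 4T1 alone. Among substrates in 4T1 alone, 0 of 43 members passed a limma F test against 0.252% of all genes, and 0 had an unadjusted p under 0.05 (3.56% of all genes). This test was part of the fit on all 40 libraries, so the wide spread of members among co-cultures entered its error. For members near 0 in 4T1 alone the outcome was thus nearly fixed beforehand and does not show equal levels on the substrates.

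**Figure D1:**
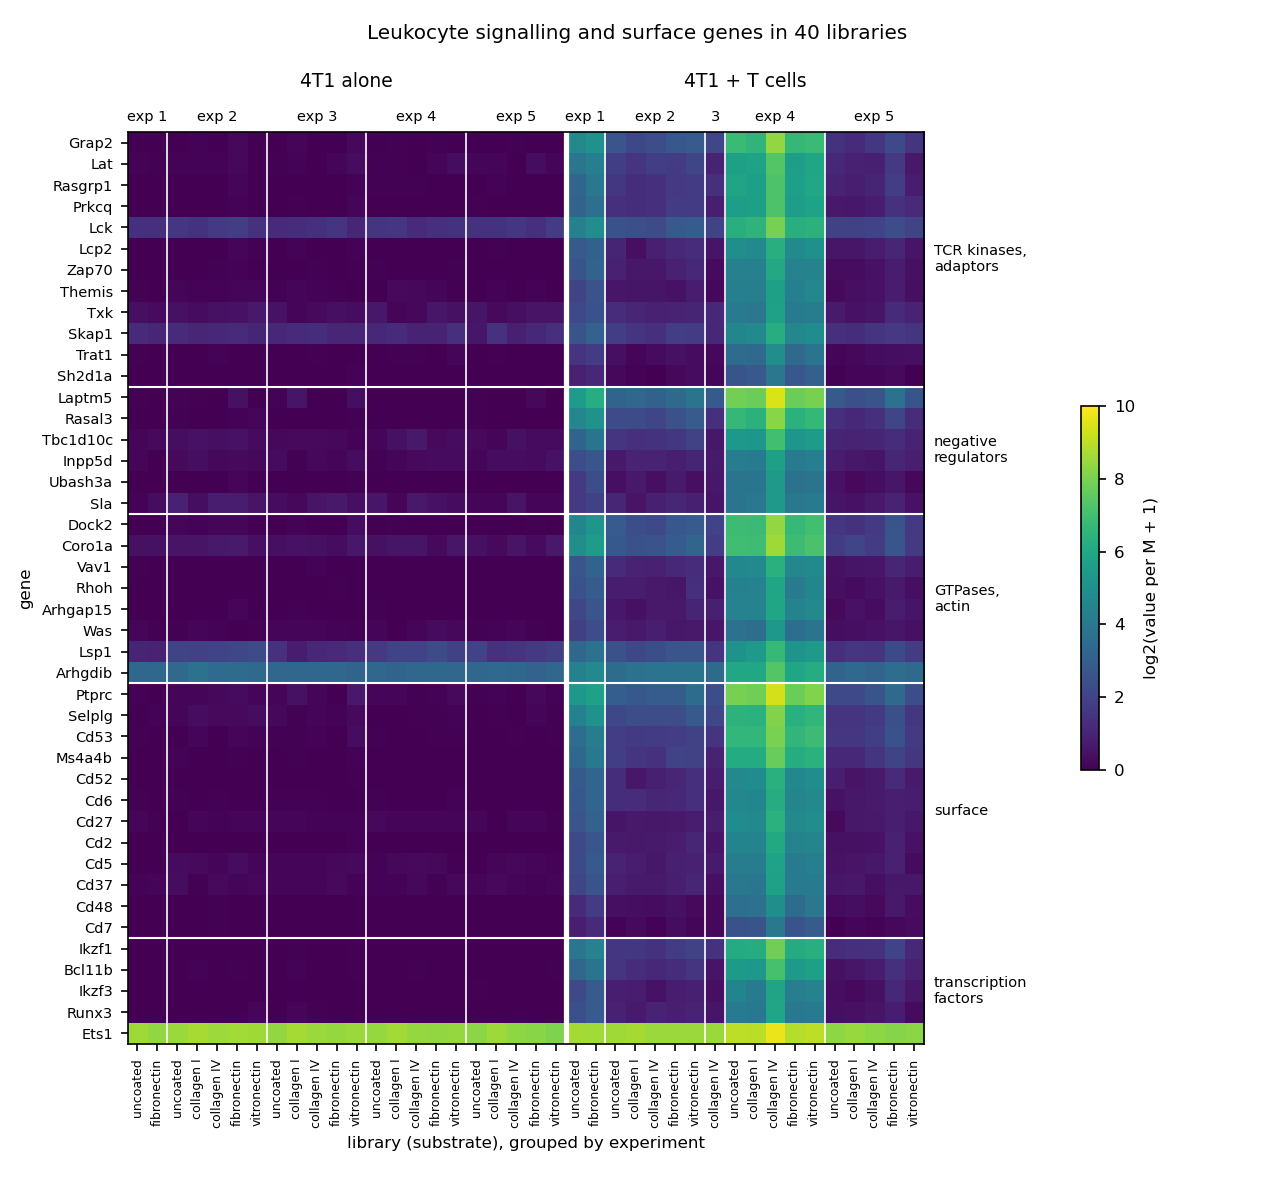
Level of the 43 members in 40 libraries, as log2(value per M + 1), with 4T1 alone on the left and co-cultures on the right, libraries grouped by experiment and genes by role. Dark columns fill the left side except for Ets1, Arhgdib, Lsp1, Lck and Skap1, and the 5 columns of experiment 4 are the brightest on the right, most of all its collagen IV well.

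When T cells were present, 42 of the 43 members rose and 0 fell (limma over 40 libraries, mean over the 5 substrates, adjusted p under 0.05), where 13.1% of all genes tested rose. The members were chosen with earlier results of these data known, so these counts describe them and are not an independent test. The 38 members low in 4T1 alone had passed the filter only through co-cultures. The members' median difference was 2.00 on the log2(value + 1) scale, and that of all genes was -0.01. The scale understates the change of low genes, so the order of the differences also follows level. In 18 pairs of wells of the same experiment and substrate, 37 members were higher with T cells in 18 of 18, as were 2.12% of all genes. For 31 members every co-culture lay above every library of 4T1 alone, against 1.17% of all genes. Without experiment 4, 33 members passed the filter and 30 of them rose (1.65% of all genes). The 3 that did not were Ets1, Arhgdib and Lsp1, and the 10 below the filter were Was, Cd5, Cd7, Cd27, Cd48, Sh2d1a, Themis, Ubash3a, Runx3 and Trat1. With the experiment as a block, 43 of 43 rose (22.4% of all genes).

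Among the 12 genes close to the T cell receptor, all 12 rose, by 1.045 to 3.70. The largest rise was that of Grap2, the adaptor that joins Lat to Lcp2 (chromosome 15, 80572594 to 80652854, plus strand, GRCm38). In 4T1 alone its level was 0 to 0.164 per M with a median of 0.0114. Co-culture values of an experiment are given in the order uncoated plastic, collagen I, collagen IV, fibronectin and vitronectin, and those of experiment 1 as uncoated plastic and then fibronectin. Grap2 read 112, 92.0, 331, 99.6 and 113 per M in experiment 4. Experiment 1 gave 25.4 and 32.4, and the 1 well of experiment 3 gave 3.32. Experiment 2 gave 5.30, 3.53, 4.10, 5.52 and 6.25, and experiment 5 gave 1.73, 1.32, 1.98, 3.604 and 1.83. All 18 co-cultures were above all 22 wells of 4T1 alone, and experiment 4 and then experiment 1 were above the other experiments. The rise of Grap2 was 3.70 ± 0.54 (SE, adjusted p = 0.000139). Lat, the scaffold of the pathway, rose by 2.85 ± 0.505 and Rasgrp1, a Ras exchange factor, by 2.85 ± 0.505. Lck itself, over its level in 4T1 alone, rose by 2.32 ± 0.47, and Skap1 by 1.51 ± 0.38. At the low end stood Trat1, a transmembrane adaptor of the receptor, with 1.403 ± 0.376, and Sh2d1a, the SAP adaptor of SLAM receptors, with 1.045 ± 0.31. Sh2d1a was at 0 in at least 1 co-culture of experiment 5, and its rise missed the threshold without the vitronectin co-culture of experiment 4.

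Of the 6 negative regulators all 6 rose, and the group held the largest rise of the 43. Laptm5, a lysosomal membrane protein that lowers antigen receptors at the surface, lies on chromosome 4, 130913125 to 130936141 on the plus strand. In 4T1 alone it read 0 to 0.466 per M with a median of 0. In experiment 4 it read 232, 216, 693, 212 and 249. Experiment 1 gave 43.6 and 73.4 and experiment 3 gave 6.16, experiment 2 gave 8.41, 8.90, 7.62, 9.98 and 13.2, and experiment 5 gave 5.86, 4.43, 4.92, 12.5 and 5.05. The 2 arms did not overlap, and experiments 4 and 1 were again the highest. Laptm5 rose by 4.69 ± 0.54 (adjusted p = 4.35e-06). Rasal3, a Ras GTPase-activating protein, rose by 3.56 ± 0.54, and Tbc1d10c, which restrains calcineurin and Ras, by 2.41 ± 0.47. The smallest rises were those of Ubash3a, a phosphatase-like suppressor of receptor signalling (1.64 ± 0.39), and Sla, an adaptor that lowers the receptor (1.41 ± 0.38).

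All 8 regulators of small GTPases and actin rose. Dock2, the Rac exchange factor of lymphocyte migration (chromosome 11, 34226815 to 34783892, minus strand), read 0 to 0.246 per M in 4T1 alone with a median of 0. In experiment 4 it read 116, 112, 336, 102 and 125 in the same order of substrates. Experiment 1 gave 22.8 and 36.7, experiment 3 gave 3.06, experiment 2 gave 6.32, 4.28, 3.63, 5.52 and 6.38, and experiment 5 gave 2.03, 1.77, 2.26, 5.11 and 2.22. Every co-culture was above every well of 4T1 alone, and the fibronectin well was the highest of experiment 5. Dock2 rose by 3.81 ± 0.53 (adjusted p = 9.3e-05). Coro1a, a coronin that binds actin, rose by 3.52 ± 0.535, and Vav1, an exchange factor for Rac, by 2.245 ± 0.446. The 2 smallest rises were those of the carcinoma-expressed members Lsp1 (1.495 ± 0.398) and Arhgdib (1.055 ± 0.295).

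All 12 surface genes rose, and none of the 12 reached 1 per M in 4T1 alone. Ptprc (CD45, chromosome 1, 138062861 to 138175708, minus strand) read 0 to 0.615 per M in 4T1 alone with a median of 0.102. In experiment 4 it read 248, 229, 659, 213 and 277 in the same order. Experiment 1 gave 39.1 and 51.5, experiment 3 gave 4.32, experiment 2 gave 6.85, 5.66, 6.52, 6.69 and 10.7, and experiment 5 gave 3.61, 3.66, 5.09, 9.66 and 4.31. Again the 2 arms did not overlap. Ptprc rose by 4.39 ± 0.58 (adjusted p = 5.0e-05). Selplg, the selectin ligand PSGL-1, rose by 3.55 ± 0.51, and Cd53, a tetraspanin of leukocytes, by 3.39 ± 0.54. Cd48, a ligand of Cd2 family receptors, rose by 1.48 ± 0.38 and Cd7 by 1.03 ± 0.295.

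Of the 5 transcription factors 4 rose. Ikzf1 (Ikaros, chromosome 11, 11685003 to 11772926, plus strand) read 0 to 0.0518 per M in 4T1 alone with a median of 0. In experiment 4 it read 69.4, 71.6, 225, 70.8 and 79.2 in the same order. Experiment 1 gave 14.2 and 20.4, experiment 3 gave 1.74, experiment 2 gave 2.03, 2.08, 1.75, 2.41 and 2.91, and experiment 5 gave 1.4, 1.541, 1.69, 3.04 and 1.22. Every co-culture was above every well without T cells. Ikzf1 rose by 3.20 ± 0.53 (adjusted p = 0.000438), Bcl11b by 2.61 ± 0.51, Ikzf3 (Aiolos) by 1.95 ± 0.43 and Runx3 by 1.90 ± 0.41. Ets1 did not pass, with a difference of 0.18 ± 0.09 (adjusted p = 0.116). With the experiment as a block its difference was 0.18 ± 0.07 and passed (adjusted p = 0.0361), and without experiment 4 it was 0.00 (adjusted p = 0.997).

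**Figure D2:**
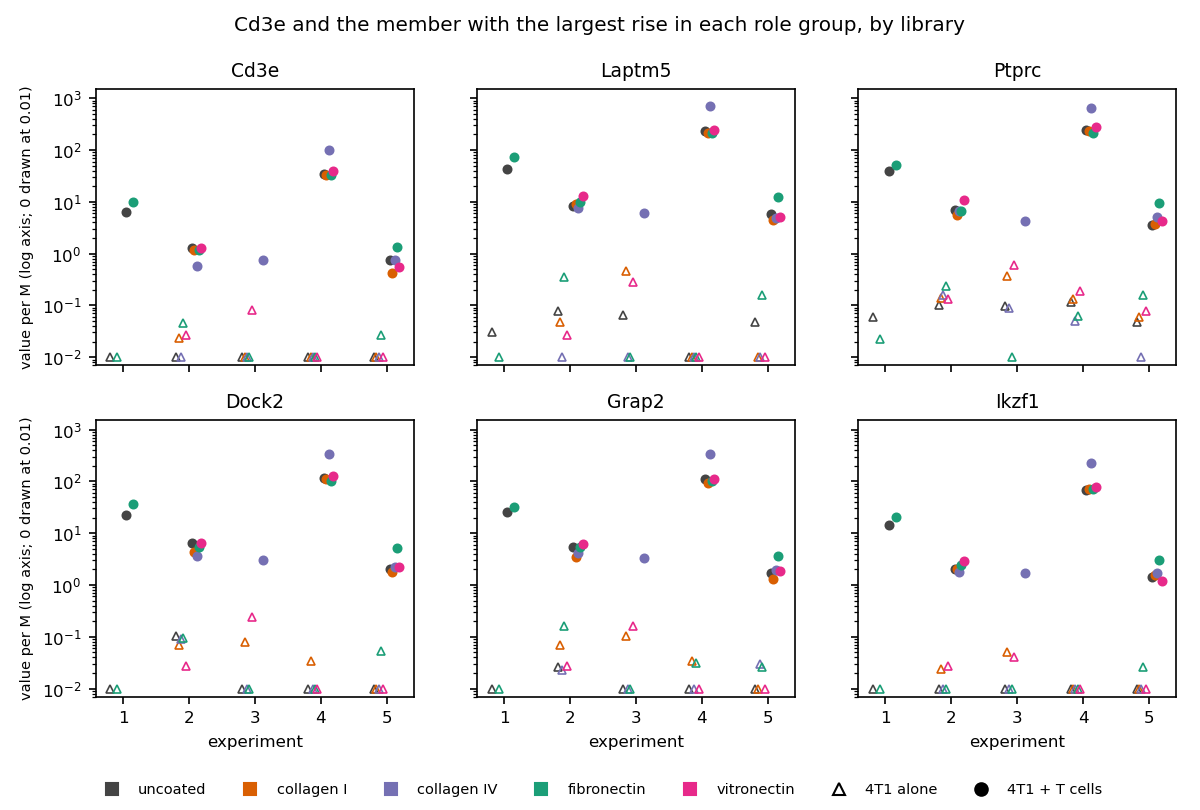
Level of Cd3e and of the member with the largest rise in each role group, in value per M on a log axis with 0 drawn at 0.01, by experiment, with colour for substrate, open triangles for 4T1 alone and filled circles for co-culture. Circles lie above triangles in all 6 panels, and experiments 4 and 1 are the highest in each. Cd3e reads 32.6 to 102 per M in experiment 4 and 0.417 to 1.32 in experiment 5.

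The rise differed between experiments for all 43 members (limma F test of the experiment by T cell terms, adjusted p under 0.05), where 45.1% of all genes differed. By edgeR on recovered reads 31 of 43 did (42.6% of all genes), and without experiment 4, 32 of 33 (3.94%). In co-culture, all 43 members were higher in each well of experiment 4 than in any other (14.3% of all genes), and 42 were higher in both wells of experiment 1 than in experiments 2, 3 and 5 (11.3%). The exception was Ets1. Members below the filter without experiment 4 had passed it only through that experiment, so high values there were a condition of their being tested. The mean in experiment 4 over that in experiment 5 was 30.98-fold to 77.6-fold for the 38 members under 1 per M in 4T1 alone, with a median of 58.6. For the 5 others it was 35.5-fold for Lck, 22.1-fold for Lsp1, 19.6-fold for Skap1, 8.83-fold for Arhgdib and 1.79-fold for Ets1. Cd3e itself was 63.7-fold higher, at 48.0 ± 30.4 against 0.753 ± 0.343 per M (SD, n = 5 each). Marker lists of other cell types also moved with experiment 4. The B cell list summed to 47.5 to 144 per M there and to 1.12 to 3.93 in 4T1 alone, and Ighm, the immunoglobulin mu chain, made 63.9 of a mean sum of 70.3 per M, with Cd79a at 1.055. NK cell markers summed to 23.1 to 68.6 per M against 0 to 0.177, of which Klrd1 made 27.3 of 35.2, with Klre1 at 0.124. Dendritic cell markers summed to 7.86 to 28.2 against 0 to 0.398, of which Ccr9 made 12.9 of 13.5. Erythroid and platelet markers summed to 8.74 to 40.3 against 0.788 to 1.895, with the globin gene Hbb-bs at 5.48 against 0.00461. In the same list Alas2 was at 0.308 against 0.258 and Ppbp at 0.397 against 0.254. Of its 4 genes tested 1 rose, Itga2b, and Hbb-bs did not pass (limma, mean over the 5 substrates, adjusted p = 0.0652). Neutrophil markers summed to 2.504 to 8.01 against 0 to 0.0981, those of monocytes and macrophages to 12.1 to 17.0 against 8.42 to 14.6, and carcinoma epithelial markers to 1617 to 2522 against 2666 to 3841. All 11 T cell markers rose, 2 of 4 B cell and 3 of 3 NK cell markers tested rose, and 0 of 11 epithelial markers rose while 4 fell. Ptprc, Laptm5, Cd37, Cd53, Ikzf1 and Ikzf3 are also known from B cells, and the part of other leukocytes in these values was not tested.

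The ratio to Cd3e was taken as log2(value + 0.1) minus log2(Cd3e + 0.1) in the 18 co-cultures. It differed between experiments for 6 of 43 members (limma F test, adjusted p under 0.05), where 98.4% of all genes differed. A gene with carcinoma RNA differs in this ratio whenever the amount of T cell RNA does. The shares of all genes in this paragraph are therefore high by construction and are no measure of how well members keep their ratio. The 6 were Ets1, Arhgdib, Skap1, Lsp1, Txk and Sla, the first 4 being members above 1 per M in 4T1 alone, and Txk and Sla with reads in all 22 libraries there. Lck and Coro1a also had reads in all 22 and did not pass this F test (adjusted p = 0.118 and 0.546). For Ets1 the log2 ratio was 8.62 ± 0.64 in experiment 5 and 3.69 ± 0.38 in experiment 4 (SD, n = 5), lower by 4.93 in experiment 4 with a 95% interval of -5.68 to -4.17. Arhgdib was lower there by 2.71, Skap1 by 1.66, Lsp1 by 1.42, Txk by 1.04, Inpp5d (the lipid phosphatase SHIP1) by 1.005 and Sla by 0.90. Outside the 6, Inpp5d and Lck (lower by 0.78) passed in the limma contrast of experiments 4 and 5 (adjusted p = 0.0071 and 0.0325). In that of experiments 4 and 2, Lck, Cd6 and Was passed (adjusted p = 0.0161, 0.0219 and 0.0299). No member passed between experiments 2 and 5. The share of all genes passing in these pairwise contrasts was not counted, so these calls describe the members only. The 6 members with the largest positive differences were Bcl11b (0.28), Rasal3 (0.26), Grap2 (0.25), Prkcq (protein kinase C theta, 0.20), Ptprc (0.14) and Lat (0.11), and none of these passed. For Laptm5 the ratio was 2.73 ± 0.04 in experiment 4 and 2.93 ± 0.24 in experiment 5, and the interval of the difference was -0.93 to 0.52. The 38 members low in 4T1 alone had a median difference of -0.21, and 36 of them lay within 1 log2 unit. Between experiments 4 and 1 the median was -0.14 and 38 of 38 lay within 1. The median SE of a difference was 0.371, and Cd3e rested on 13 to 179 reads a library in experiment 5, so these intervals do not show equal ratios. The fit shares its estimate of the spread with all genes tested, and SEs were nearly alike for all members (0.365 to 0.394). The SDs of Laptm5 given above were smaller than that. A member that did not pass is therefore not shown to keep its ratio. When the matching well of 4T1 alone was subtracted first, with differences below 0 set to 0, 0 of 43 members differed (83.6% of all genes). The spread is shared with all genes in this setting too, so the 0 does not show equal ratios. Whether RNA of 4T1 made the 6 calls was not tested. With 0.5 added in place of 0.1, 14 members differed (99% of all genes).

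**Figure D3:**
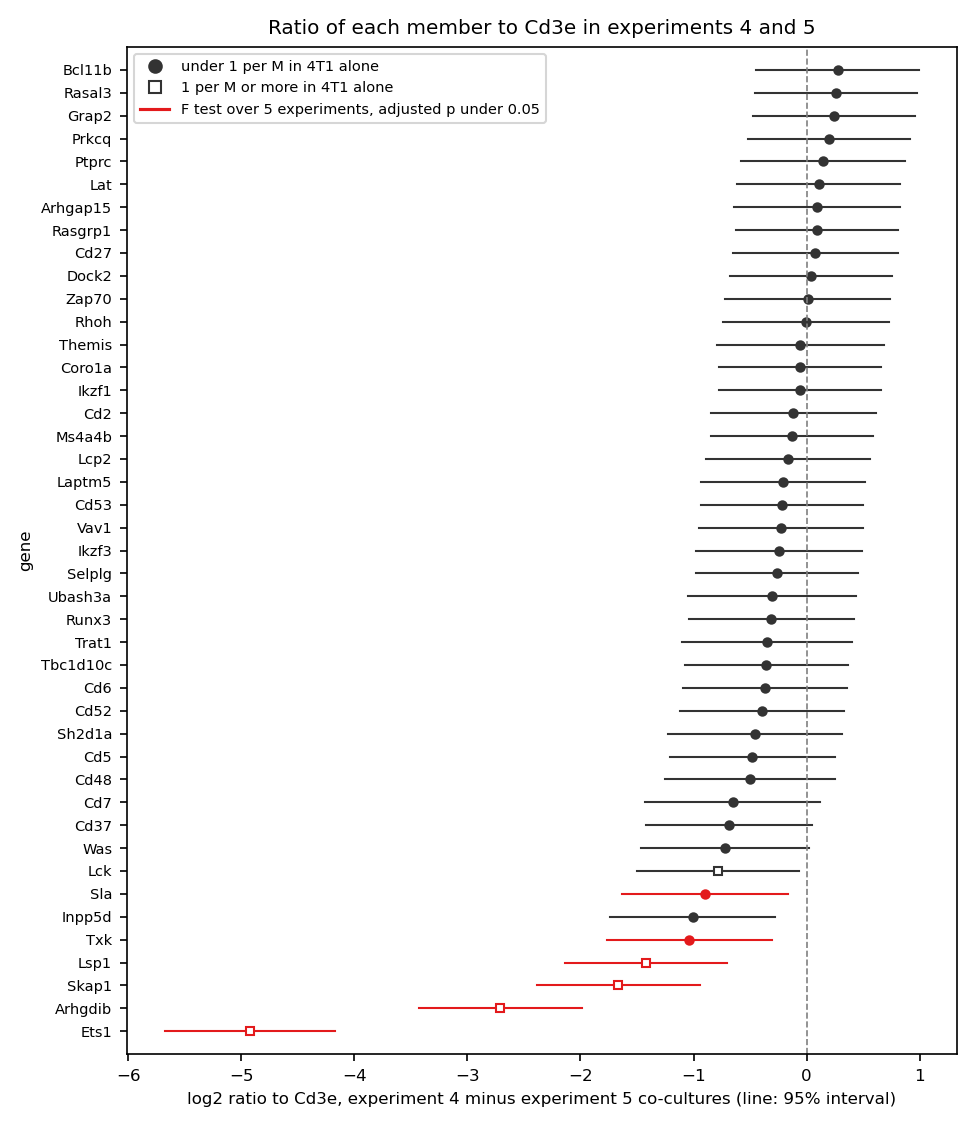
Difference in log2 ratio to Cd3e between co-cultures of experiments 4 and 5 for each member, with 95% intervals. Members at 1 per M or more in 4T1 alone (open squares) lie toward the negative end, from -0.78 for Lck to -4.93 for Ets1, and most others lie near 0.

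For members with RNA in the carcinoma line, each co-culture was set against the well of 4T1 alone of its experiment and substrate. Taking the difference as the added level assumes that the carcinoma part was the same in both wells, which was not tested. Carcinoma epithelial markers summed to a mean of 2179 per M in experiment 4 co-cultures against 3344 in 4T1 alone. The second mean is over all 22 libraries of 4T1 alone and not the matching wells, so experiment and T cells both enter this gap. Lck was higher with T cells in 18 of 18 pairs, and over experiments 1 to 5 the difference in Lck was 2.79, 2.84, 2.05, 2.36 and 1.83 times that in Cd3e. Ets1 was higher in 10 of 18 pairs. In 4T1 alone Ets1 ranged from 270 to 418 per M with a median of 350.3, by experiment 377 and 335 in experiment 1, 364, 418, 370, 391 and 382 in experiment 2, and 332, 403, 364, 341 and 357 in experiment 3. Experiment 4 gave 342, 387, 344, 330 and 338 and experiment 5 gave 306, 370, 319, 294 and 270. In co-culture Ets1 read 506, 505, 830, 470 and 519 in experiment 4, in the same order of substrates. It read 399 and 387 in experiment 1, 382, 405, 356, 358 and 357 in experiment 2, 359 in experiment 3, and 318, 353, 317, 287 and 309 in experiment 5. The 5 co-cultures of experiment 4 were above all other wells, while in experiments 2, 3 and 5 the 2 arms overlapped. Over experiments 1 to 5 the difference in Ets1 was 4.56, -12.4, -6.87, 4.537 and 6.55 times that in Cd3e. Arhgdib (7.87 to 12.6 per M in 4T1 alone, median 9.27) read 62.3, 63.2, 159, 59.5 and 71.1 in the co-cultures of experiment 4 and 20.0 and 26.0 in those of experiment 1. It read 10.6, 12.7, 12.9, 12.99 and 13.3 in experiment 2, 10.1 in experiment 3 and 7.99, 9.66, 8.66, 11 and 9.65 in experiment 5. Arhgdib was higher with T cells in 16 of 18 pairs, and both exceptions were in experiment 5. Lsp1 and Skap1 were also higher in 16 of 18.

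**Figure D4:**
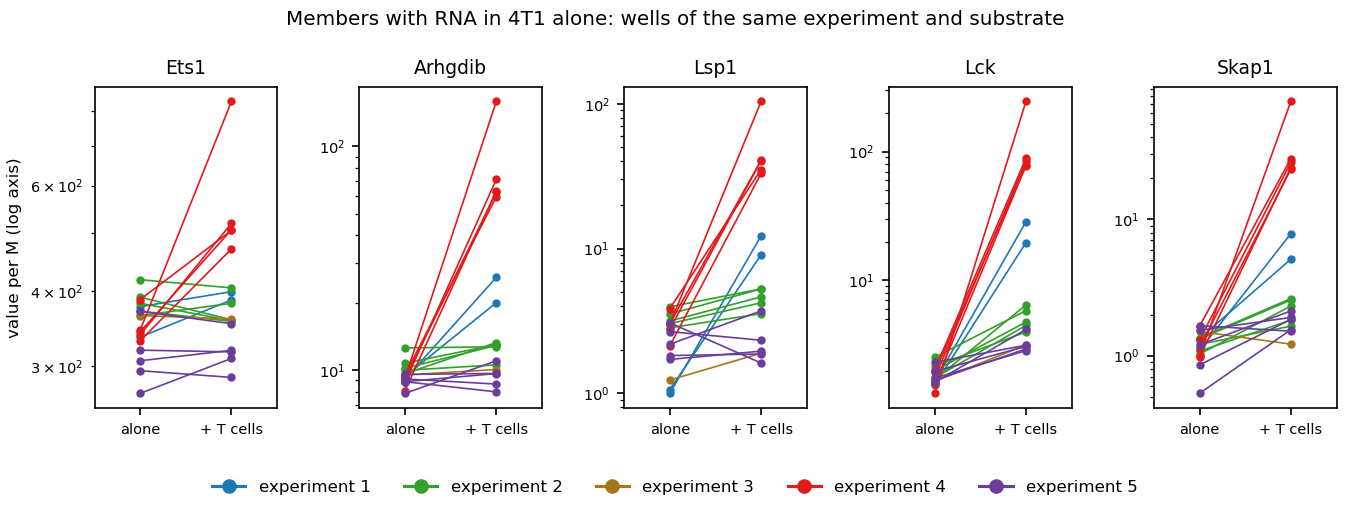
Level of Ets1, Arhgdib, Lsp1, Lck and Skap1 in value per M on log axes that differ between panels, each line joining a well of 4T1 alone to the co-culture of the same experiment and substrate. Lines of experiment 4 climb in every panel, and those of experiments 2 and 5 are nearly flat for Ets1.

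On a single substrate 0 of 43 members passed in limma without a block, on any of the 5 (0% of all genes each). At an unadjusted p under 0.05 there were 36 on fibronectin (2.4% of all genes) and 29 on uncoated plastic (10.3%). There were 22 on collagen IV (9.82%), 20 on vitronectin (9.58%) and 14 on collagen I (1.08%). Laptm5 had differences of 5.16 ± 1.14 on fibronectin, 4.78 ± 1.14 on uncoated plastic and 4.697 ± 1.296 on vitronectin (SE). On collagen IV its difference was 4.49 ± 1.2 and on collagen I 4.35 ± 1.296. The experiment as a block gave 12 members on uncoated plastic (1.04% of all genes). EdgeR on recovered reads called 19 of 43 on uncoated plastic (0.667%), 32 on collagen IV (1.7%), 19 on fibronectin (0.775%), and 0 on collagen I and vitronectin (0% each). EdgeR with the experiment as a block, a fit chosen after the data were seen, called 38 on collagen IV (4.83%), 38 on uncoated plastic (4.64%), 37 on fibronectin (3.07%), 35 on vitronectin (4.18%) and 35 on collagen I (2.21%). Without experiment 4, limma called 10 on uncoated plastic (0.178%) and 24 on fibronectin (0.931%).

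Between substrates, 0 of 43 members passed among co-cultures (limma F test, 0.129% of all genes) and 0 differed between substrates in the T cell effect (0% of all genes). None of the 43 had an unadjusted p under 0.05 in either test (2.84% and 0.361% of all genes), and edgeR also called 0. These fits hold no term for the experiment, so the wide spread between experiments counts as error and substrate differences could be missed. With the experiment as a block in limma, the lowest unadjusted p of a member was that of Ets1 in both tests (0.613 and 0.878). The block does not take up a T cell rise that differs between experiments, so that spread stayed in the error and differences could still be missed. Without experiment 4, 0 passed among co-cultures and 10 of 33 had an unadjusted p under 0.05 (2.61% of all genes). Within experiments, the median log2(value + 0.1) difference of the 38 members low in 4T1 alone from the uncoated co-culture was -0.11 ± 0.15 on collagen I (SD over 3 experiments, above 0 in 0) and 0.54 ± 0.94 on collagen IV (3 experiments, above 0 in 2). It was 0.41 ± 0.53 on fibronectin (4 experiments, above 0 in 3) and 0.20 ± 0.11 on vitronectin (3 experiments, above 0 in 3). The collagen IV value rests on experiment 4, where the members were higher than on uncoated plastic by a median of 1.59 with a range of 1.37 to 1.79, and Cd3e was higher by 1.59. In experiments 2 and 5 the collagen IV medians were -0.21 and 0.26, and without experiment 4 their mean was 0.02. The fibronectin medians were 0.59, 0.04, -0.06 and 1.08 in experiments 1, 2, 4 and 5, and their mean fell to 0.19 without experiment 5. The collagen I mean was -0.03 without experiment 2, and the vitronectin mean was 0.14 to 0.24 without 1 experiment each, all computed after the data were seen.

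**Figure D5:**
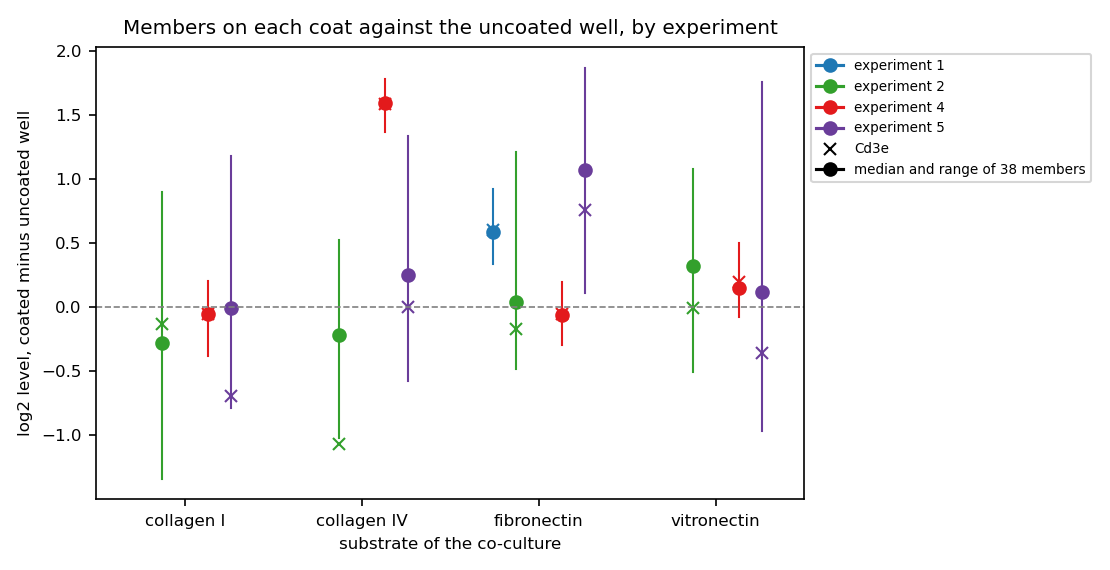
Median (circle) and range (line) over 38 members of the log2 difference between a coated and the uncoated co-culture of the same experiment, with Cd3e as a cross, by coat and experiment. Collagen IV in experiment 4 lies at 1.59 for both, fibronectin in experiment 5 at 1.08 for the members and 0.76 for Cd3e, and the medians of the other wells lie between -0.28 and 0.59.

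Other genes of the same pathways moved less uniformly. Of 40 further T cell receptor pathway genes 26 rose and 1 fell, with a median difference of 0.35. Among the largest rises were those of Sh2d2a, an adaptor of T cells (2.59), Pik3cd, a catalytic subunit of phosphoinositide 3-kinase (2.40), and Dgka, a diacylglycerol kinase (2.08). Dok1, an adaptor, fell by 0.16, and Nck2 had a difference of -0.08 and did not pass. Of 23 further leukocyte actin regulators 18 rose and 1 fell (Arpc1b, an Arp2/3 subunit, by 0.18), and the largest rise was that of Rac2, the blood cell Rac GTPase, with 3.306. Of 17 further lymphocyte transcription factors tested 10 rose and 1, Gata3, fell by 0.15. Lef1, a transcription factor of the Wnt pathway, rose by 2.47. These lists were chosen with results of these data known and include genes that 4T1 cells also express, such as Dok1 at 33.6 per M and Gata3 at 70.1 per M in 4T1 alone.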

How the data were processed

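Libraries were poly(A)-selected total RNA read as single ends, per the labels' protocols. The submitters' processing notes name STAR 2.6, featureCounts and edgeR 3.31.7 and build mm10. The deposited values are a signal per gene and library, reads divided by a scaled library size by the authors. One gene with a cell that held no number was left out. Whole reads were recovered, and 43 members and 3 further lists were chosen with earlier results of these data known. Values were tested on the log2(value + 1) scale (limma 3.58.1, R 4.3.3) over all 40 libraries and 10 group means (30 residual degrees of freedom), with Benjamini-Hochberg adjustment over all 14701 genes. EdgeR 4.0.16 quasi-likelihood was an alternative, as were other pseudocounts, filters, scaling, a block for experiment and leaving out experiments or single libraries. The experimental replicate label names the experiment and pairs wells: 156 pairs of libraries sharing it had a median residual correlation of 0.478 (lowest 0.0409) and 562 pairs not sharing it -0.131. Members were named by size of difference within 5 role groups (3 largest, 2 smallest), by level in 4T1 alone and by the Cd3e ratio. Gene positions are from GENCODE on GRCm38. The fits were tested on simulated data with independent libraries and genes at higher levels in 4T1 alone than most members. How they behave for low members and for wells that share an experiment was not tested. One gene of a further list is not reported here. Library names carry tags of unstated meaning, and in experiment 4 the tag and the presence of T cells cannot be told apart. Libraries of a group were checked for copies, and none was found (chi-square per degree of freedom 7.03 to 744.7 over 62 pairs).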

Additional observations from a re-analysis of the deposited data

Results flagged for a closer look

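The rise of 43 members differed between experiments by an F test of the interaction. In the co-cultures, 27 sets of values (a gene or the members' mean on one substrate, with 4 libraries or more) were examined for a single library far from the others, and 12 were found, where chance gives about 1 in 20. All 12 were co-cultures of experiment 4. On collagen IV the library stood above the others of its group with 102.2 per M for Cd3e, 331 for Grap2, 693 for Laptm5, 336 for Dock2, 659 for Ptprc, 225 for Ikzf1, 830 for Ets1 and 159 for Arhgdib. The mean log2 level of the 38 members low in 4T1 alone was 6.57 in that library. On uncoated plastic it stood above them with 33.9 per M for Cd3e, 232 for Laptm5 and 248 for Ptprc. These are wells of 1 experiment, so the flags are not independent of each other.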

How the results depend on the processing

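The count of 42 members that rose was 42 with pseudocount 0.25, with no filter on low values, with column totals and by edgeR, and 41 to 42 over 40 fits without 1 library each. Without 1 experiment each it was 30 to 42. On single substrates, where limma called 0 members, pseudocount 0.25 gave 3 on fibronectin. EdgeR on recovered reads gave 19 on uncoated plastic, 32 on collagen IV and 19 on fibronectin. The experiment as a replicate block gave 12 on uncoated plastic, and changed no other call but that of Ets1. EdgeR with the replicate block, chosen after seeing the data, gave 38, 35, 38, 37 and 35 on uncoated plastic, collagen I, collagen IV, fibronectin and vitronectin. Leaving out 1 experiment each gave 0 to 10 on uncoated plastic, 0 to 24 on fibronectin and 0 on the other 3. Without 1 experiment each, the count of members differing between experiments was 32 to 43 (31 by edgeR on all), and that for the ratio to Cd3e, 6, was 4 to 7, with 14 under pseudocount 0.5, 0 with 4T1 alone subtracted, and 7 with 4 CD3 genes as the reference. Ets1 ranged from -0.0006979 to 0.2623 without 1 experiment each, the lowest without experiment 4, where Arhgdib and Lsp1 (0.31 and 0.64) missed the threshold. Lsp1 (0.51) also missed it under the block without experiment 4, and Sh2d1a (0.85) without 1 vitronectin co-culture. Apart from these, the cause of each change was not tested. With 3 to 5 libraries a group, and Cd3e at 13 to 48 reads in most co-cultures of experiments 2, 3 and 5, small differences were not detectable.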
